A study of Mus musculus with 24 samples.

Results

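The genes described here are the transcript of p53 and the regulators that close its feedback loop: Trp53, Mdm2, Mdm4, Ppm1d, Cdkn1a and Ccng1. They were chosen by symbol from the 54242 gene symbols of an RNA-seq table of mouse embryonic stem cells (ESCs). All 6 were found, and all 6 were among the 16447 genes with a mean of at least 0.5 on the log2(TPM + 1) scale that were tested, where TPM is a transcript level corrected for length and scaled to a sum of 1000000 in each library.

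p53 is a transcription factor that stops the cell cycle or kills the cell after stress, and it is regulated largely through the stability of its protein. MDM2 is the ubiquitin ligase that marks p53 for degradation, and MDM4 is its relative and partner, which binds and inhibits p53. p53 activates the gene of its own ligase, so the circuit forms a negative feedback loop, and Ppm1d (the phosphatase WIP1) and Ccng1 (cyclin G1) are further p53 targets that feed back on p53 or MDM2. Cdkn1a encodes p21, the inhibitor of cyclin-dependent kinases through which p53 arrests cells in G1. When ribosome assembly is disturbed, free ribosomal proteins such as RPL5 and RPL11 bind MDM2 and keep it from p53. RNA-seq does not measure these protein events.

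The study transfected CGR8 cells, a feeder-free mouse ESC line, with a pool of non-targeting siRNAs (si-CTL) or a pool against Rsl24d1 (si-Rsl24d1), which encodes an assembly factor of the large ribosomal subunit. Either siRNA was combined with or without a rescue, an ectopic Rsl24d1 open reading frame induced by doxycycline in a modified CGR8 line. Cells were taken in serum and LIF, the cytokine that maintains self-renewal (day 0), or after 4 days in 10 nM retinoic acid (RA; day 4), for which the methods state that LIF was left out and the labels do not. The 24 libraries are 3 in each of these 8 groups, labelled as independent triplicates. All carry an siRNA, so no group is untransfected. The labels call the cells without doxycycline empty vector, and the title of each sample was used for its group. Transfection was transient.

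Read numbers are not kept in the table, so library depth is unknown and no counting interval can be given. Pairs of libraries of the same group correlated at 0.985 to 0.991 over the tested genes, and no 2 columns were identical. ESC markers were still abundant at day 4. The 8 markers summed to 4955 to 5113 TPM at day 0 and 6853 to 7021 TPM at day 4 in si-CTL cells without rescue. Of these, 2 of 8 were higher at day 4 (Dppa5a and Nanog) and 6 lower, beside 24.1% and 36.7% of all tested genes. The 7 tested RA response markers were low, at 15.8 to 17.2 TPM in sum at day 0 and 38.9 to 42.7 TPM at day 4. Of the 7, 4 rose, beside the same 24.1%. Day 4 is therefore named here by its treatment.

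Rsl24d1, the siRNA's target, checked the labels. Its level was 148, 139.7 and 136 TPM in the 3 si-CTL libraries at day 0 without rescue and 36.6, 37.9 and 32.7 TPM in the 3 si-Rsl24d1 libraries, which is 3.95-fold lower. With rescue the si-Rsl24d1 libraries held 103, 96.1 and 121 TPM, against 158, 149.7 and 147 TPM in rescued si-CTL libraries, so the summed transcript was still lower (log2 change -0.50, adjusted p = 2.2e-05). With rescue this value may hold both the endogenous and the ectopic transcript, which cannot be told apart here. At day 4 without rescue it was 97.9 ± 2.74 TPM in si-CTL cells and 95.1 ± 5.33 TPM in si-Rsl24d1 cells (SD, n = 3 each), a log2 difference of -0.04 with a 95% confidence interval of -0.19 to 0.11. The siRNA contrast at day 4 was therefore read in cells whose Rsl24d1 transcript, in TPM as deposited, was no longer measurably depleted. The median of all tested genes was 0.13 higher in that contrast, and relative to this shift Rsl24d1 stood lower. Its change after scaling between libraries was not tested.

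In gencode vM21 on the mouse build GRCm38, Trp53 (chr11:69580359-69591873) and Ppm1d (chr11:85311244-85347066) lie on the plus strand of chromosome 11, and Ccng1 (chr11:40748552-40755311) on its minus strand. Mdm2 (chr10:117688875-117710758) and Mdm4 (chr1:132959484-133030561) are on the minus strand, and Cdkn1a (chr17:29090976-29100727) is on the plus strand. Processed pseudogene copies of Trp53 and Mdm4 are annotated, and reads could be split with them, but the copies Trp53-ps and Mdm4-ps reached at most 0.0916 TPM and 0.0414 TPM in any library. The gene Gm29257, on the opposite strand within Mdm4, was at most 0.801 TPM. AC167363.2, on the opposite strand within Cdkn1a, was not analysed here, and without counting by strand its reads could not be told from those of Cdkn1a.

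Because p53 acts through paired 10-base units in its target genes, the start regions of the 6 genes were searched for this element. RefSeq start windows (GRCm38.p6, 250 bases before to 50 after each start) were matched for all 6 genes, 8 windows in all. A match was the p53 response element by its consensus name, read as 2 adjoining 10-base units, each with its CNNG core intact, and at most 2 mismatches over the 20 bases. The consensus reads the same on both strands. Of 32841 windows of this length, 107 (0.326%) held such a match and 22 (0.067%) held it with at most 1 mismatch. Windows of Cdkn1a and Ccng1 held it, each with 1 mismatch, and no window of Trp53, Mdm2, Mdm4 or Ppm1d held one. A 10-base unit without mismatch, counting units inside the full elements, was in a window of every gene but Mdm4. The window at the second start of Cdkn1a held none, and 8.36% of all windows held such a unit. The 2 stretches are shown, upstream of the start and in the direction of transcription, because their letters match the element that p53 reads. The 20 matched bases are in capitals.
Cdkn1a, GRCm38.p6, chr17:29090903-29090972, plus strand: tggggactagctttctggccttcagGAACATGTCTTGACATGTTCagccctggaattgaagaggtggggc
Ccng1, GRCm38.p6, chr11:40755437-40755506, minus strand: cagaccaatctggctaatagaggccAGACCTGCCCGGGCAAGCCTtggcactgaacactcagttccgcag
The Cdkn1a element ended 32 bases before the more upstream of the gene's 2 annotated starts, and the window at its other start held none. The Ccng1 element ended 176 bases before its start. A match in letters is a description and not evidence of binding. The windows are short, and no window covered the first intron of Mdm2, which is known to hold an internal promoter that p53 activates.

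**Figure D1:**
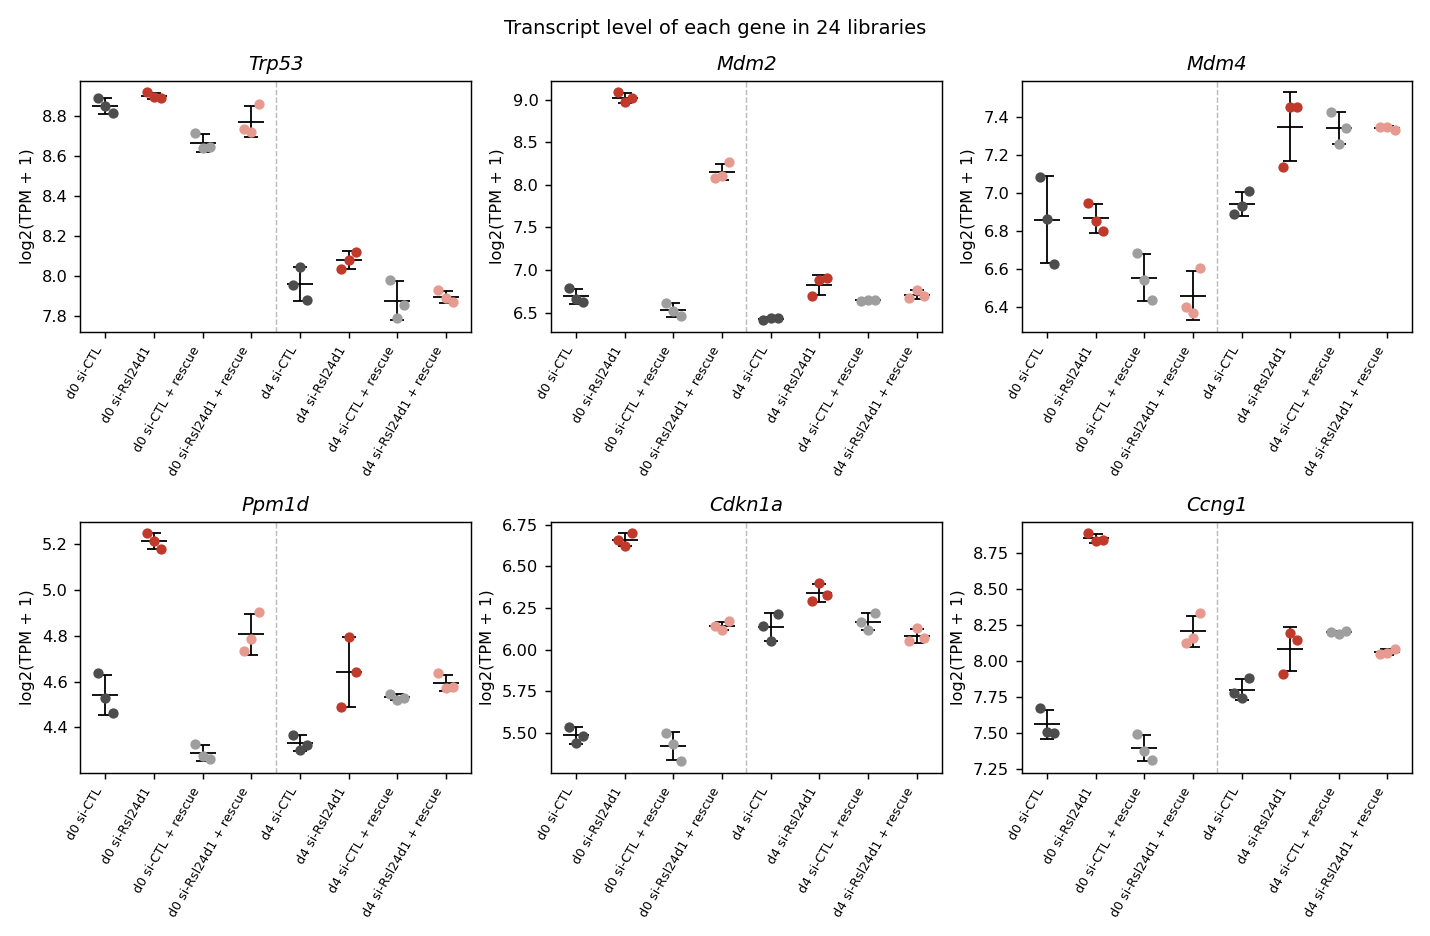
Level of each of the 6 genes, log2(TPM + 1) on the vertical axis, in the 3 libraries (points) of each of 8 groups, with the group mean and SD as black lines; vertical scales differ between panels and do not start at 0. Mdm2, Ppm1d, Cdkn1a and Ccng1 stand highest in si-Rsl24d1 cells at day 0 without rescue, Trp53 is lower in every day 4 group than in every day 0 group, and Mdm4 is highest in 3 of the 4 day 4 groups.

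Depletion of Rsl24d1 at day 0 raised the transcripts of Mdm2, Ppm1d, Cdkn1a and Ccng1, and those of Trp53 and Mdm4 did not pass the test. A gene is said here to have risen or fallen when limma's adjusted p (Benjamini-Hochberg over the 16447 genes, two-sided) was below 0.01. Of the 6 genes 4 rose and 0 fell, whereas 14.3% of all tested genes rose. With a change over 1.8-fold also required, 3 of 6 were called (Mdm2, Cdkn1a and Ccng1), against 4.18% of all tested genes. The median log2 change was 0.92 over the 6 genes and -0.01 over all tested genes. Fold changes are ratios of mean TPM, and log2 changes are on the log2(TPM + 1) scale.

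Trp53 was the most abundant of the 6 transcripts in si-CTL cells at day 0. Without rescue it was 475, 461 and 449 TPM in the si-CTL libraries and 484, 476 and 474 TPM in the si-Rsl24d1 libraries. The groups overlapped, the log2 change was 0.05 with a 95% confidence interval of -0.05 to 0.15, and the adjusted p was 0.441. With rescue it was 419.6, 398 and 399 TPM in si-CTL libraries and 426, 422 and 465 TPM in si-Rsl24d1 libraries, with a log2 change of 0.11 (interval 0.01 to 0.21, adjusted p = 0.128). These libraries did not overlap, but the difference was 1.08-fold and did not pass the test.

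Mdm2, the ligase, showed the largest change of the 6 genes. It was 109, 100.1 and 97.6 TPM in the si-CTL libraries and 542, 499.6 and 517 TPM in the si-Rsl24d1 libraries without rescue. Every depleted library lay above every control, by 5.08-fold in the mean (log2 change 2.33 ± 0.06 SE, adjusted p = 2.2e-16). With rescue Mdm2 was 96.7, 91 and 86.7 TPM in si-CTL libraries and 269.7, 275 and 306 TPM in si-Rsl24d1 libraries, still 3.1-fold higher (adjusted p = 2.3e-13).

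Mdm4, the ligase's partner without strong ligase activity of its own, had no passing change. Without rescue it was 135, 115 and 97.9 TPM in si-CTL libraries and 122, 115 and 110.1 TPM in si-Rsl24d1 libraries. The depleted values lay inside the range of the controls, which was the widest of any gene here relative to its mean, and the log2 change was 0.01 (interval -0.20 to 0.22, adjusted p = 0.96). Its sign turned under median of ratios scaling and on leaving out either of 2 libraries. With rescue Mdm4 was 102, 92.1 and 85.4 TPM in si-CTL libraries and 83.4, 81.5 and 96.3 TPM in si-Rsl24d1 libraries, again overlapping.

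Ppm1d, the phosphatase that removes activating phosphates from p53, was the least abundant of the 6 transcripts in every group. It was 23.9, 22 and 21.1 TPM in si-CTL libraries and 37, 36.1 and 35.3 TPM in si-Rsl24d1 libraries without rescue. The groups did not overlap, and the rise was 1.62-fold (log2 change 0.67 ± 0.06 SE, adjusted p = 2.7e-08), under the 1.8-fold threshold. With rescue the levels were 19.1, 18.4 and 18.2 TPM and 25.6, 26.6 and 29 TPM, a 1.46-fold rise (adjusted p = 2.8e-06).

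Cdkn1a, the main effector of G1 arrest downstream of p53, was 45.4, 42.3 and 43.6 TPM in si-CTL libraries and 99.9, 97.7 and 103 TPM in si-Rsl24d1 libraries without rescue. The depleted libraries all lay above the controls, by 2.29-fold (log2 change 1.18 ± 0.05 SE, adjusted p = 1.7e-13). With rescue it was 44.2, 42.2 and 39.2 TPM in si-CTL libraries and 69.4, 68.4 and 71 TPM in si-Rsl24d1 libraries, 1.66-fold higher (adjusted p = 1.0e-09).

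Ccng1, which recruits protein phosphatase 2A to MDM2, was 203, 180.2 and 179.8 TPM in si-CTL libraries and 473, 455 and 457 TPM in si-Rsl24d1 libraries without rescue. It rose 2.46-fold with no overlap between the groups (log2 change 1.30 ± 0.07 SE, adjusted p = 8.7e-12). With rescue it was 179, 165 and 158 TPM and 279, 284 and 321 TPM, a 1.76-fold rise (adjusted p = 2.8e-08). Cdkn1a and Ccng1, the genes whose start windows hold the element printed above, thus rose together with Mdm2 and Ppm1d, whose windows hold none.

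With rescue the response was still present and, for 3 of the genes, smaller. In rescued cells the same 4 genes rose and 0 fell after si-Rsl24d1, against 8.1% of all tested genes that rose. The log2 response with rescue was 69.5% of the unrescued response for Mdm2, 77.4% for Ppm1d, 61.3% for Cdkn1a and 62.7% for Ccng1. The test of that difference, the interaction of siRNA and rescue, passed for Mdm2 (difference -0.71 ± 0.08 SE in log2 change, adjusted p = 6.9e-05), Cdkn1a (-0.46 ± 0.07 SE, adjusted p = 4.8e-04) and Ccng1 (-0.48 ± 0.10 SE, adjusted p = 0.00516). It did not pass for Ppm1d (-0.15, interval -0.33 to 0.03, adjusted p = 0.389). So 3 of 6 genes had a smaller response with rescue, against 1.18% of all tested genes with a lower value in this test. The Ccng1 call was lost without any filter on low values (adjusted p = 0.0118), in a fit of only these groups (0.0203) and on leaving out any of 8 of the 12 libraries. Rsl24d1, endogenous and ectopic together, was 1.42-fold lower in the rescued depleted cells than in their controls, and the part of that difference in the response was not tested.

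Within si-Rsl24d1 cells at day 0, the libraries with rescue were below those without for every one of the 6 genes. The test passed for 5 of them (12.2% of all tested genes fell): Mdm2 (1.83-fold lower, adjusted p = 2.3e-08), Ccng1 (1.57-fold), Cdkn1a (1.44-fold), Ppm1d (1.34-fold) and Mdm4 (1.33-fold). The Mdm4 call was lost without a filter on low values (adjusted p = 0.0126), in a fit of only these groups (0.0152) and on leaving out any of 4 of the 6 libraries. Trp53 was 1.09-fold lower (adjusted p = 0.0492), and this sign turned under median of ratios scaling. The median of all tested genes was -0.11 in this comparison, so small falls are to be read against that shift. Median of ratios scaling, which removes it, left the 5 calls in place, although it moved the share of all passing genes that were higher from 20.1% to 54.7%. The 5 genes then stood at log2 changes of -0.73 for Mdm2, -0.51 for Ccng1, -0.38 for Cdkn1a, -0.27 for Ppm1d and -0.27 for Mdm4. Relative to unrescued si-CTL cells, rescued si-Rsl24d1 cells still held more Mdm2 (2.77-fold), Cdkn1a (1.59-fold), Ccng1 (1.57-fold) and Ppm1d (1.21-fold), 4 of 6 against 6.6% of all tested genes (24.4% of all passing genes were higher, 46.8% after scaling), while Mdm4 was 1.33-fold lower (adjusted p = 0.00344). The calls of Ppm1d and Mdm4 were lost in a fit of only these groups (adjusted p = 0.0366 and 0.052) and on leaving out any of 2 of the 6 libraries for Ppm1d and any of the other 4 for Mdm4. These comparisons share their groups with those above.

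Doxycycline induction of the rescue in si-CTL cells at day 0 moved none of the 6 past limma's test. Their log2 changes ran from -0.31 for Mdm4 to -0.06 for Cdkn1a (0.0857 after median of ratios scaling), where the median of all tested genes was -0.12. At an unadjusted p below 0.05 there were 5 of the 6 genes, and after adjustment 0.0122% of all tested genes passed in either direction. Rsl24d1 itself, endogenous and ectopic together, was 1.07-fold higher with rescue here, and the libraries overlapped. Its log2 change of 0.10 (interval -0.05 to 0.25, limma's adjusted p = 0.286) did not pass. In TPM as deposited the comparison therefore shows no measurable excess of Rsl24d1 transcript. Relative to the median of all tested genes of -0.12 Rsl24d1 stood higher. Its change after median of ratios scaling was not tested.

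**Figure D2:**
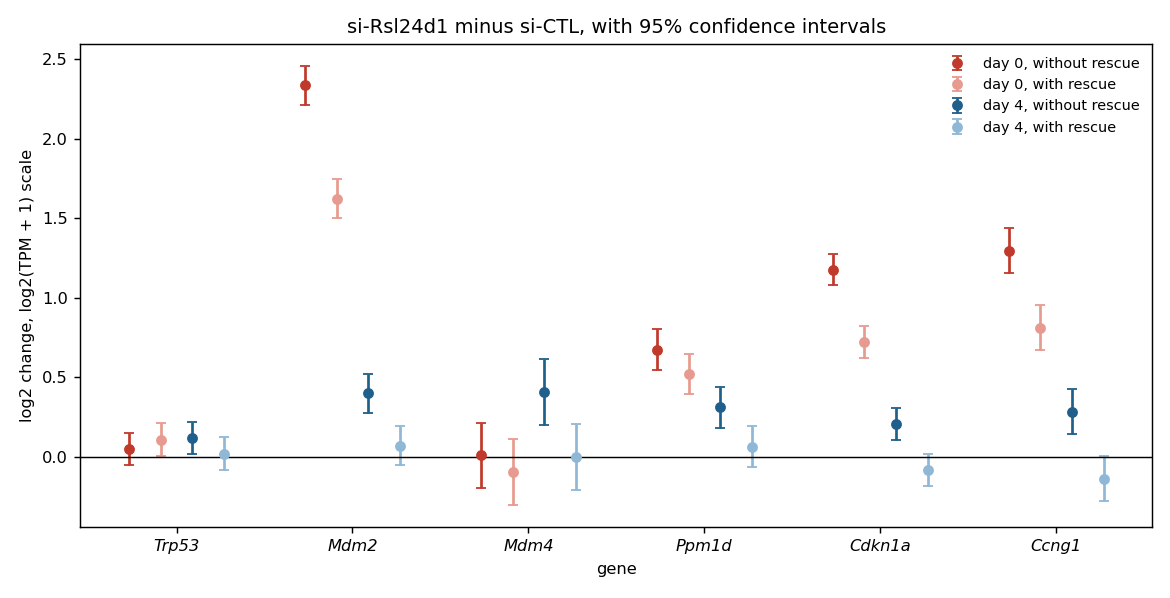
Change with si-Rsl24d1 (log2 difference of si-Rsl24d1 minus si-CTL, 3 libraries each) for the 6 genes in 4 settings, with 95% confidence intervals from limma. At day 0 Mdm2 changed by 2.33 without and 1.62 with rescue, and at day 4 the point estimates of all 6 genes lie between -0.14 and 0.40.

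At day 4 the response to si-Rsl24d1 was small. Without rescue 5 of 6 genes passed the test and rose, against 24.9% of all tested genes, but none by over 1.8-fold, and the median of all tested genes was itself 0.13 higher. Under median of ratios scaling 3 of 6 passed (Mdm2, Mdm4 and Ppm1d) and 14.1% of all tested genes rose, with the share of passing genes that were higher at 48.1% in place of 80.5%. In a fit of only the groups compared 1 of 6 passed, Mdm2. Leaving out single libraries gave counts of 2 to 5, with 2 when replicate 2 of either group was left out and 3 without replicate 1 of the si-CTL or replicate 3 of the si-Rsl24d1 libraries. The rise of Mdm2 held in each of these fits, from 83.9, 85.7 and 85.8 TPM in si-CTL libraries to 102, 117 and 119 TPM in si-Rsl24d1 libraries (1.33-fold, adjusted p = 3.4e-05), with no overlap. Mdm4 was 117, 121 and 128 TPM in si-CTL libraries and 139.8, 174 and 174 TPM in si-Rsl24d1 libraries (1.33-fold, adjusted p = 0.00289), again without overlap, although it had not passed at day 0.

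Cdkn1a was 69.3 ± 4.02 TPM in si-CTL and 80.1 ± 3.14 TPM in si-Rsl24d1 cells at day 4 (SD, n = 3 each). Its 1.16-fold rise (adjusted p = 0.00184) was lost under median of ratios scaling (log2 change 0.04, adjusted p = 0.429), and so was the 1.22-fold rise of Ccng1 (log2 change 0.11, adjusted p = 0.0222). Ccng1 was 218, 213 and 235 TPM in si-CTL and 239, 292 and 282 TPM in si-Rsl24d1 libraries. Ppm1d was 19.6, 18.7 and 19 TPM in si-CTL and 21.4, 26.7 and 24 TPM in si-Rsl24d1 libraries, which did not overlap (1.26-fold, adjusted p = 5.3e-04). Trp53 was 248 ± 14.6 TPM in si-CTL and 269 ± 8.21 TPM in si-Rsl24d1 cells, did not pass (log2 change 0.12, adjusted p = 0.0523) and changed sign under median of ratios scaling. With rescue, 0 of 6 genes passed limma's test at day 4, 0 of 6 had an unadjusted p below 0.05, and 5.87% of all tested genes passed in either direction (39.8% of these higher, 55.7% after scaling). The largest of these log2 changes in size was -0.14, for Ccng1 (interval -0.28 to 0.00).

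In these rescued cells at day 4 Trp53 was 251, 219.8 and 230.5 TPM in si-CTL libraries and 242, 236 and 233 TPM in si-Rsl24d1 libraries. Mdm2 was 98, 99.2 and 99.4 TPM and 101, 108 and 103 TPM, and Mdm4 was 171, 152 and 161 TPM and 162, 162 and 159.8 TPM. For Trp53 and Mdm4 the si-Rsl24d1 libraries lay inside the range of the si-CTL libraries, and for Mdm2 all 3 lay above it. Ppm1d was 22.4, 22 and 22.1 TPM and 23.9, 22.8 and 22.9 TPM, Cdkn1a was 70.8, 68.3 and 73.4 TPM and 65.4, 69.1 and 66.1 TPM, and Ccng1 was 293, 289.8 and 295 TPM and 263, 264 and 269.9 TPM. The si-Rsl24d1 libraries were all above the others for Ppm1d and all below them for Ccng1, and for Cdkn1a they overlapped.

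The response to si-Rsl24d1 without rescue differed between the days for 4 of 6 genes, where 8.83% of all tested genes had a lower response at day 4. Of all passing genes 71.4% had a higher response at day 4, and 54.9% after scaling. The log2 response at day 4 minus that at day 0 was lowest for Mdm2 (-1.94 ± 0.08 SE, adjusted p = 1.8e-12), with -1.01 for Ccng1 (adjusted p = 9.9e-08), -0.97 for Cdkn1a (adjusted p = 1.7e-09) and -0.36 for Ppm1d (adjusted p = 0.00228). The median of all tested genes was 0.14 in this test. For Mdm4 the difference was 0.40 in the other direction (adjusted p = 0.0273), and for Trp53 it was 0.07 (adjusted p = 0.442). Rsl24d1 transcript and day changed together, so the weaker depletion and the change of culture cannot be told apart.

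Doxycycline was given with every rescue, and its own effect was not tested. Rescue at day 4 gave calls that depended on single libraries. In si-CTL cells it raised Mdm4 (1.32-fold, adjusted p = 0.00801) and Ccng1, from 218, 213 and 235 TPM to 293, 289.8 and 295 TPM (1.32-fold, adjusted p = 0.00149), 2 of 6 genes against 8.85% of all tested genes (86.8% of all passing genes were higher, 51.5% after scaling). This count was 0 without replicate 1 of either group, 1 without replicate 2 or 3 of the unrescued or replicate 3 of the rescued group, and 2 without replicate 2 of the rescued group. In si-Rsl24d1 cells at day 4 it lowered Cdkn1a alone of the 6 (1.2-fold, adjusted p = 0.00154), where 4.23% of all tested genes fell (18.1% of all passing genes were higher, 41% after scaling), and this call was lost without replicate 2 of the unrescued libraries. The interaction of siRNA and rescue at day 4 passed for 3 of 6 genes (Mdm2, Cdkn1a and Ccng1), where 8.25% of all tested genes were lower and the median of all tested genes was -0.17 (7.81% of all passing genes were higher, 49.1% after scaling). Under median of ratios scaling 0 passed. Without replicate 1 of unrescued si-Rsl24d1 cells at day 4, which held the lowest level of each of the 6 genes in that group, 5 passed. Leaving out any other library gave 0, except for replicate 3 of unrescued and replicate 2 of rescued si-CTL cells, which gave 2 each.

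Between day 0 and day 4 the 6 genes moved in different directions. The days differ in RA and, by the study's methods, in the removal of LIF, so neither is isolated. In si-CTL cells without rescue Trp53 fell from 462 ± 12.7 TPM to 248 ± 14.6 TPM (SD, n = 3 each), 1.86-fold lower (adjusted p = 3.9e-12). Cdkn1a went the other way, from 43.8 ± 1.55 TPM to 69.3 ± 4.02 TPM (1.58-fold higher, adjusted p = 3.2e-10). Ccng1 rose 1.18-fold (adjusted p = 0.00358), Mdm2 fell 1.2-fold (adjusted p = 5.4e-04) and Ppm1d fell 1.17-fold (adjusted p = 0.00447). Mdm4 did not pass (log2 change 0.08, adjusted p = 0.459), except under median of ratios scaling (0.22, adjusted p = 0.00855), under which Ppm1d was lost (adjusted p = 0.0588). Without replicate 3 of the si-CTL cells at day 4, or in a fit of only these groups, 3 of 6 passed. The 5 of 6 genes past the test in either direction stand beside 60.9% of all tested genes, whose median was -0.10. Trp53 fell alongside many genes that act on its protein: 9 of 11 kinases and acetyltransferases fell (Ep300 by 1.01 and Crebbp by 0.99) and 9 of 11 ligases and deubiquitinases (Daxx by 1.28 and Huwe1 by 1.11), with 0 higher in either list, where 36.7% of all tested genes fell and 24.1% rose. After median of ratios scaling 7 and 9 were lower, with 1 of the ligases and deubiquitinases higher. Among markers of other cells, 4 of 4 of primitive endoderm and 5 of 6 of fibroblasts (Col3a1 by 2.53 and Col1a2 by 1.96) rose. Of 5 trophoblast genes 3 rose and 1 fell, and of 4 neural genes 1 rose and 2 fell. The part of such cells in the changes of the 6 genes was not tested.

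Trp53 fell in every arm. The fall was 1.73-fold in rescued si-CTL cells, 1.77-fold in si-Rsl24d1 cells and 1.85-fold in rescued si-Rsl24d1 cells. Mdm4 rose in the other three arms, from 93.1 to 162 TPM in rescued si-CTL cells, from 116 to 163 TPM in si-Rsl24d1 cells and from 87.1 to 161 TPM in rescued si-Rsl24d1 cells. In rescued si-CTL cells 4 of 6 genes rose (Mdm4, Ppm1d, Cdkn1a and Ccng1), where 36.8% of all tested genes rose (62.1% of all passing genes were higher, 50% after scaling). The median of all tested genes was 0.12 higher there, and the rise of Ppm1d (log2 change 0.25) is to be read against that shift. In si-Rsl24d1 cells without rescue 5 of 6 fell from day 0 to day 4, where 26.4% of all tested genes fell, Mdm2 most, from 519.6 to 113 TPM (4.61-fold lower, adjusted p = 8.3e-17). In rescued si-Rsl24d1 cells 4 of 6 passed, Trp53, Mdm2 and Ppm1d lower and Mdm4 higher, where 58.1% of all tested genes passed in either direction. Unlike in si-CTL cells, Cdkn1a fell in si-Rsl24d1 cells without rescue, from 100.2 to 80.1 TPM (1.25-fold lower).

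**Figure D3:**
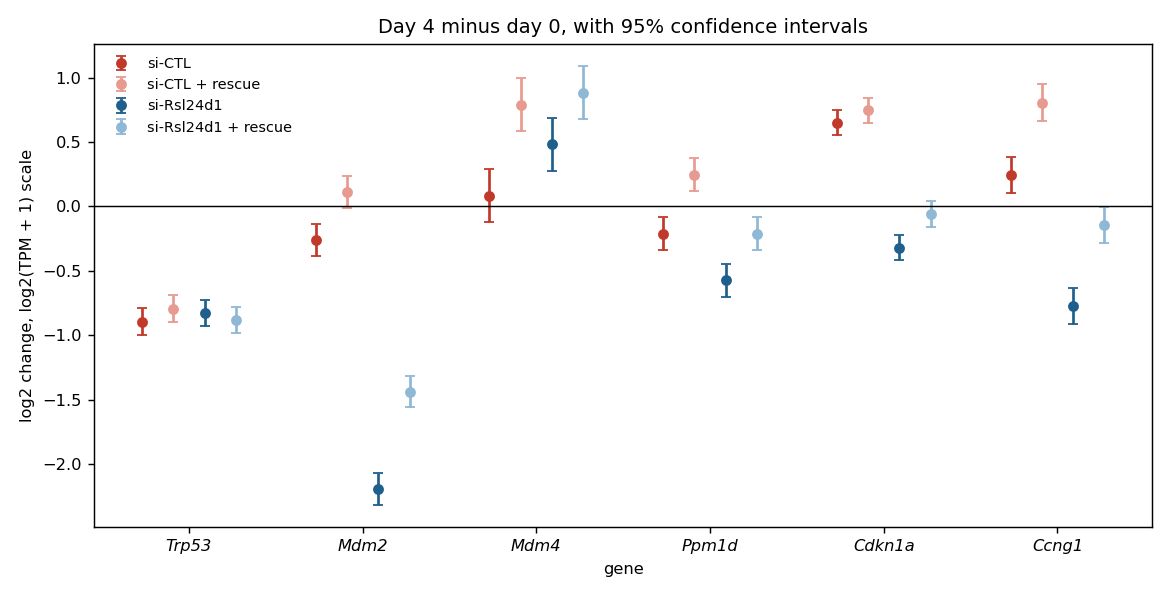
Change from day 0 to day 4 (log2 difference, 3 libraries each) of the 6 genes in 4 arms, with 95% confidence intervals from limma. Trp53 fell in all 4 arms, by 0.79 to 0.89, whereas Mdm2 changed by -0.26 in si-CTL cells and by -2.20 in si-Rsl24d1 cells.

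The balance of the transcripts for p53 and its 2 MDM regulators was read as ratios of TPM within each library, which do not depend on scaling between libraries. In si-CTL cells at day 0 without rescue, Mdm2 transcripts per Trp53 transcript were 0.23, 0.217 and 0.217. In si-Rsl24d1 cells they were 1.12, 1.05 and 1.09, so that Mdm2 outnumbered Trp53 in all 3 libraries, 4.91 times the control ratio. With rescue the ratio was 0.225 ± 0.00729 in si-CTL cells and 0.648 ± 0.0131 in si-Rsl24d1 cells (SD, n = 3 each). The exact two-sided permutation p was 0.1 for either comparison, the smallest that 3 against 3 libraries allow.

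At day 4 the ratio of Mdm2 to Trp53 was 0.344 ± 0.0207 in si-CTL cells, above its day 0 value, as Trp53 fell more than Mdm2. It was 0.418 ± 0.0227 in si-Rsl24d1 cells, 0.424 ± 0.0314 in rescued si-CTL cells and 0.439 ± 0.0221 in rescued si-Rsl24d1 cells (SD, n = 3 each). The unrescued si-CTL libraries lay below those of each of the other day 4 groups, and those others overlapped one another.

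Mdm2 and Mdm4 transcripts were near parity in control cells. Their ratio was 0.81, 0.868 and 0.997 in the si-CTL libraries at day 0 and 4.43, 4.36 and 4.69 in the si-Rsl24d1 libraries, with rescue 0.984 ± 0.0319 and 3.26 ± 0.1 (SD, n = 3 each). At day 4 it was below 1 in all 12 libraries, with 0.698 ± 0.0239 in unrescued si-CTL libraries and 0.696 ± 0.0317 in unrescued si-Rsl24d1 libraries, which overlapped (exact permutation p = 1). In 26 such comparisons over the 2 ratios, no exact permutation p adjusted over the family went below 0.13.

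**Figure D4:**
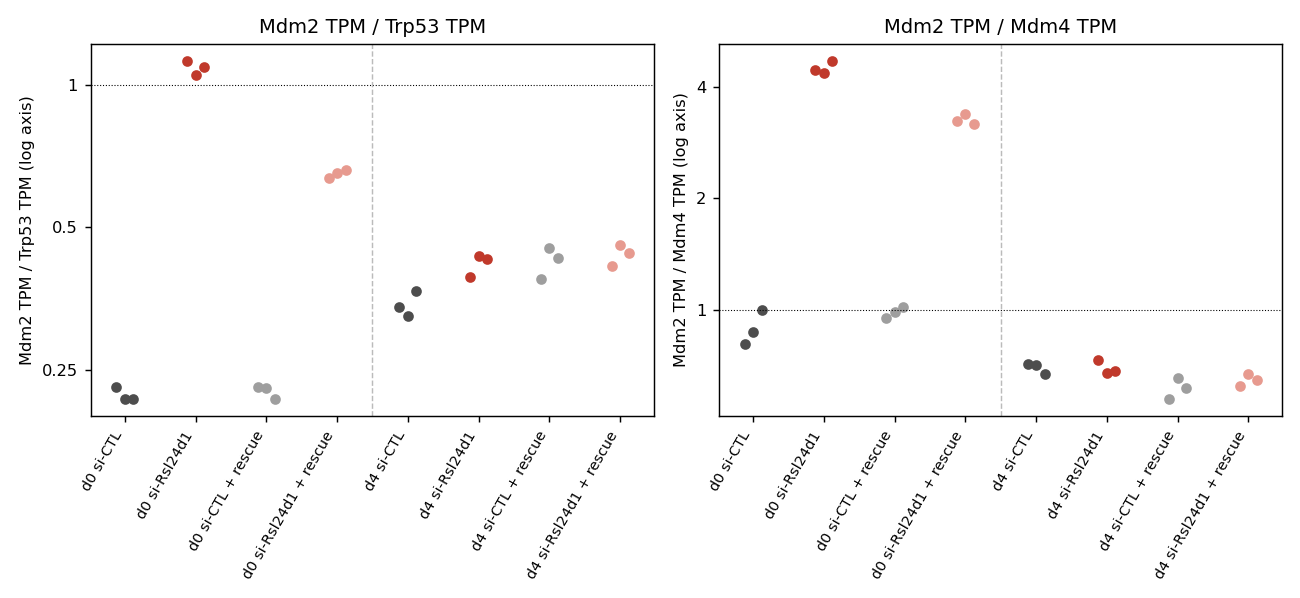
Ratio of Mdm2 to Trp53 TPM (left) and of Mdm2 to Mdm4 TPM (right) on log axes, in each of the 3 libraries of 8 groups, with a dotted line at a ratio of 1. Mdm2 exceeds Trp53 only in the 3 si-Rsl24d1 libraries at day 0 without rescue, and it exceeds Mdm4 clearly in the 6 si-Rsl24d1 libraries at day 0.

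Set in order by mean TPM, the transcripts in si-CTL cells at day 0 were Trp53 (462), Ccng1 (188), Mdm4 (116), Mdm2 (102), Cdkn1a (43.8) and Ppm1d (22.3). Only Mdm4 and Mdm2 overlapped as neighbours. In si-Rsl24d1 cells without rescue the order at day 0 was Mdm2 (519.6), Trp53 (478), Ccng1 (462), Mdm4 (116), Cdkn1a (100.2) and Ppm1d (36.2), with no overlap between neighbours. At day 4 Trp53 and Ccng1 led in every group, and they overlapped in both unrescued groups.

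Across the 8 groups Mdm2 was highest in si-Rsl24d1 cells at day 0 without rescue, then with rescue, and neither overlapped its neighbour. The other 6 groups lay between 85.1 and 113 TPM. Cdkn1a and Ccng1 were lowest in the 2 si-CTL groups of day 0, and the 4 day 4 groups lay between these and the unrescued si-Rsl24d1 cells. For Trp53 the 4 day 4 groups held 234 to 269 TPM in the mean and neighbours among them overlapped, and the 4 day 0 groups held 406 to 478 TPM.

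The pattern over all 24 libraries was compared between each gene and every other tested gene by Pearson's r on log2(TPM + 1). These points are 3 libraries in each of 8 groups, so r mostly reflects group means. Most like Mdm2 were Scn3b (r = 0.994), Rtkn (0.993) and Ssc5d (0.992). Most like Trp53 were U2af2 (0.995), Bysl (0.994) and Ddx56 (0.992). Mdm4 was most like Ptbp3 (0.983), Trim24 (0.982) and Zyg11b (0.982), and Ppm1d most like Notch3 (0.984), Fbxw7 (0.981) and Bcl2l1 (0.981). For Cdkn1a Lpar6 (0.979) and Abhd4 (0.974) were near, and for Ccng1 they were Vcan (0.988), Ptpn14 (0.988) and Arap2 (0.987). Among the 6 genes themselves, r was 0.924 for Mdm2 with Ppm1d, 0.915 for Cdkn1a with Ccng1, 0.8 for Mdm2 with Ccng1 and -0.723 for Trp53 with Mdm4.

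Other genes of the pathway were read in lists, beside a median log2 change of -0.01 over all tested genes at day 0. Of 32 tested p53 target genes beyond the 6, 24 rose and 3 fell with si-Rsl24d1 at day 0 without rescue (median log2 change 0.84), beside 14.3% and 16.1% of all tested genes. The largest rises were those of Zfp365 (2.33, adjusted p = 3.4e-13), Perp (1.97, adjusted p = 1.3e-15), an apoptosis effector at the membrane, and Btg2 (1.92, adjusted p = 4.5e-17), an antiproliferative gene. Sat1 (-0.42), Ddb2 (-0.28) and Tigar (-0.20) fell, of which Ddb2 encodes a sensor of ultraviolet DNA damage and Tigar a regulator of glycolysis. With rescue 22 of the 32 rose and 1 fell (median 0.59), beside 8.1% of all tested genes that rose, and 21 of the 32 had a lower response at day 4 than at day 0, beside 8.83%. At day 4 without rescue 14 rose, beside 24.9% of all tested genes, among them Plk3 (1.04) and Zmat3 (0.78), and Rps27l fell (-0.26). That count was 7 higher and 6 lower under median of ratios scaling. In si-CTL cells from day 0 to day 4, 10 of the 32 rose (Pmaip1 by 0.65 and Btg2 by 0.64) and 13 fell (Plk3 by 1.63 and Sesn2 by 1.18), shares near those of all tested genes (24.1% and 36.7%). After scaling 12 were higher and 10 lower.

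Some regulators of p53 passed the test at day 0 in either direction, as did 30.4% of all tested genes, 14.3% higher and 16.1% lower. Of 11 kinases and acetyltransferases that act on p53, 0 rose in limma's test (0 also had an unadjusted p below 0.05 and a higher level) and 3 fell: Chek1 (-0.51), Kat2b (-0.49) and Chek2 (-0.24). Among 11 other ligases and deubiquitinases of p53 or MDM2, 3 rose (Rchy1, 0.57, Ube4b, 0.51, and Daxx, 0.26) and 2 fell (Trim28, -0.30, and Stub1, -0.20). Rchy1 encodes PIRH2, a further ligase of p53. Of 15 ribosomal and nucleolar proteins that bind MDM2 or p53, Rps14 rose (0.20) and Rpl5 fell (-0.24), and Rpl11 did not pass (0.04, adjusted p = 0.659). Beside the 30.4% of all tested genes, the share past the test was higher for the ligases and deubiquitinases. It was lower for the kinases and acetyltransferases and for these 15 proteins. Whether any list differed from all tested genes was not tested. Of 8 tested paralogs of the 6 genes, Trp73, which encodes the p53 relative p73, rose (2.10, adjusted p = 9.3e-14), and Cdkn1b (-0.28) and Ppm1g (-0.20) fell.

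Downstream of p21, 11 of 23 tested cell cycle genes that p21 represses through RB-family complexes fell and 1 rose (median -0.17), beside 16.1% of all tested genes that fell. Mybl2 (-0.89), Ccne1 (-0.53) and E2f1 (-0.46) fell most, and Cdc20 rose (0.19). Among 10 partners of p21, the retinoblastoma-family genes Rb1 (2.04) and Rbl2 (1.24) and the cyclin gene Ccnd2 (1.04) rose, and 4 fell, with Ccnd3 (-0.53), Cdk6 (-0.43) and Pcna (-0.42) the most.

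**Figure D5:**
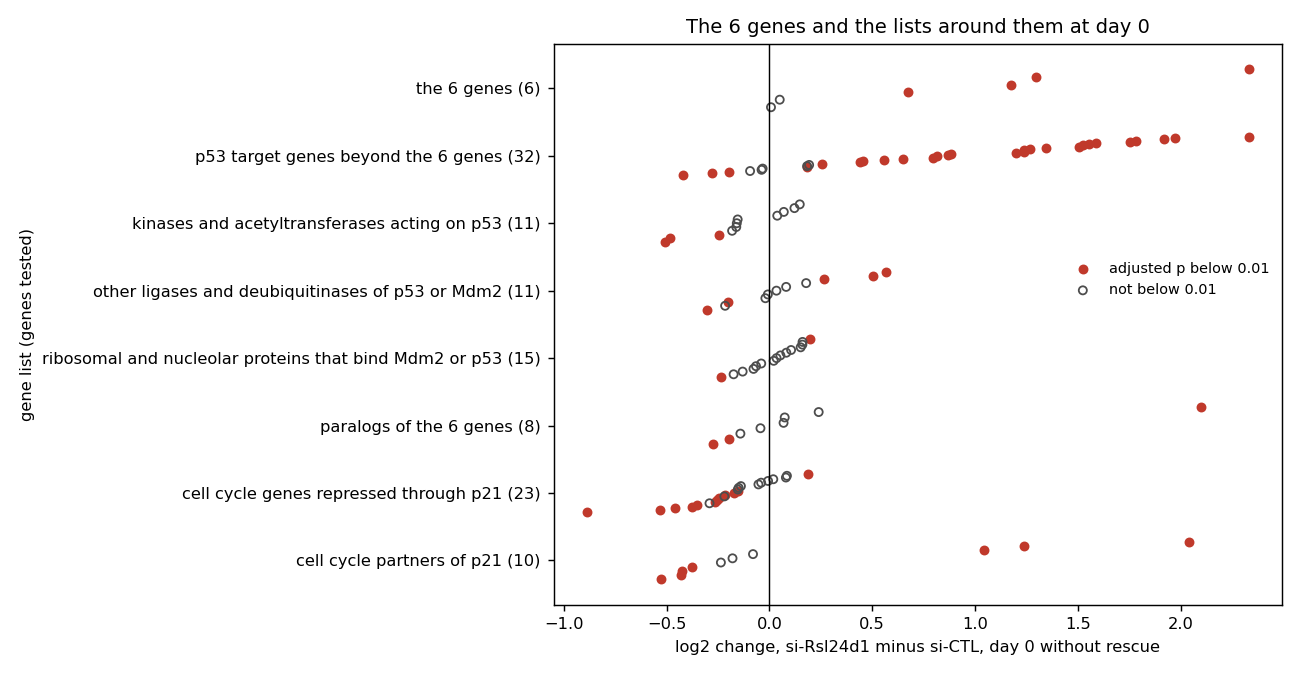
Change with si-Rsl24d1 at day 0 without rescue (log2 difference, horizontal axis) for the 6 genes and for each tested gene of 7 lists around them (rows, with the number tested), filled in red where limma's adjusted p was below 0.01. Most p53 target genes lie to the right of 0, up to 2.33, while the list of ribosomal and nucleolar proteins stays between -0.24 and 0.20.

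The same lists at day 4 without rescue were read beside the shift of all genes (median 0.13). The kinases and acetyltransferases had 4 of 11 higher and 0 lower, beside 24.9% of all tested genes that rose, with Ep300 (0.56) and Prkdc (0.54) first, and the ligases and deubiquitinases 5 of 11 higher, led by Huwe1 (0.47) and Ube4b (0.42). Under median of ratios scaling these were 2 of 11 and 1 of 11. Of the 15 MDM2-binding and p53-binding proteins, Gnl3 rose (0.14) and 3 fell, including Rpl26 (-0.28) and Rpl11 (-0.25), beside 6.04% of all tested genes that fell. Under median of ratios scaling 0 of the 15 were higher and 6 lower, beside 2500 of all 16447 tested genes that were lower. Among the paralogs 4 of 8 rose (Cdkn1c, 0.48, and Ppm1f, 0.36, most), among the genes repressed through p21 5 of 23 (Mki67, 0.53, and Bub1, 0.34, most), and among the partners of p21 4 of 10 (Ccnd2, 1.12, and Ccnd1, 0.64, most). The share of the genes repressed through p21 was below that of all tested genes. With scaling the genes repressed through p21 had 1 higher and 7 lower.

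Cell type markers were read in the same comparisons. At day 0 without rescue 7 of 8 ESC markers were lower in si-Rsl24d1 cells (Esrrb by 1.09, Zfp42 by 0.96 and Tfcp2l1 by 0.81). Of all tested genes 16.1% fell and 14.3% rose there. The summed level of the ESC markers was 3957 to 4005 TPM against 4955 to 5113 TPM in si-CTL cells. Of the other marker lists at day 0, 2 of 7 RA response genes rose (Cyp26b1 by 0.32), 0 of 4 primitive endoderm genes passed limma's test (1, Gata6, at an unadjusted p below 0.05), Nes rose and Pax6 fell among 4 neural genes, 2 of 5 trophoblast genes rose (Tfap2c and Gata3) and 2 of 6 fibroblast genes fell (Col1a1 and Col1a2). At day 4 without rescue 4 of 4 tested primitive endoderm genes were higher in si-Rsl24d1 cells (29.1 to 36.9 TPM in sum, against 14.7 to 19.1 TPM), as were 4 of 5 trophoblast, 3 of 6 fibroblast (171.7 to 240.1 TPM, against 91.2 to 100.02 TPM), 5 of 7 RA response and 2 of 4 neural genes and 1 of 8 ESC genes. Under median of ratios scaling these were 4 of 4, 3 of 5, 3 of 6, 2 of 7, 2 of 4 and 0 of 8, the last with 3 lower. Of all tested genes 24.9% rose at day 4, and 14.1% after scaling, and the share of the ESC genes was below these. The part of these cell states in the levels of the 6 genes was not tested, and a change in cell makeup and a change in RNA per cell cannot be told apart in bulk samples.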

How the data were processed

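RNA-seq libraries of CGR8 mouse ESCs numbered 24, with 3 for each of the 8 combinations of siRNA, rescue and day. The authors deposited log2(TPM + 1) values per gene, from reads aligned with STAR 2.7.8a and quantified with Salmon 1.4.0 (submitters' processing notes, which name the build GRCh38 although the gene symbols are those of mouse). The methods name a mouse build. TPM sums to 1000000 in each library, so read depth is unknown and a shift of a few abundant genes moves all others. The labels also differ on library kit (polyadenylated or total RNA), on RA medium and on hours of transfection (48 or 72), so these are not stated as facts.

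Values were used as deposited with a pseudocount of 1. Genes with a mean of at least 0.5 were fitted with limma 3.58.1 (R 4.3.3) on 8 group means with a mean-variance trend, and p-values were adjusted by the Benjamini-Hochberg method over all 16447 genes. The fit was tested on simulated data. Alternatives were other pseudocounts, filters at 0 and 1.5, median of ratios scaling (factors 0.896 to 1.107), no trend, a replicate block, only the groups compared, a 1.8-fold rule and leaving out each library. Ratios were compared by exact two-sided permutation tests. The 6 genes, 13 gene lists (151 genes) and tests were chosen with earlier results of these data known. The genes named from a list were at most 3 in each direction at day 0, and 2 at day 4 or between days, with the largest changes among those past the test. Gata6, and Rpl11 at day 0, were named after their values were seen. The 6 genes are given by library or by group mean, with up to 3 most similar genes each. Some genes that these rules name are not reported here. Gene positions are from gencode vM21 and start windows from RefSeq, both on GRCm38.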

Additional observations from a re-analysis of the deposited data

Results flagged for a closer look

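The response to si-Rsl24d1 differed between conditions for several of the 6 genes, by limma's test of the interaction (adjusted p below 0.01). Without rescue the log2 response at day 4 minus that at day 0 was -1.94 for Mdm2, -0.36 for Ppm1d, -0.97 for Cdkn1a and -1.01 for Ccng1. At day 0 the log2 response with rescue minus that without was -0.71 for Mdm2, -0.46 for Cdkn1a and -0.48 for Ccng1. At day 4 the same difference was -0.33 for Mdm2, -0.29 for Cdkn1a and -0.42 for Ccng1, and these day 4 differences did not pass under median of ratios scaling. Groups of 3 libraries were too small for a test of single outlying libraries.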

How the results depend on the processing

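Of the log2 changes of the 6 genes recomputed under other settings or without single libraries, 1359 kept their direction and their side of the threshold, 153 lost the call, 10 gained it and 26 changed sign. The 182 recomputed ratios were all counted as unchanged, but no other outcome was possible. Scaling cannot alter a ratio within a library, and leaving out 1 of 3 libraries cannot move a mean by the replicate spread. Of the counts of genes past the test 213 stayed within 1.5 times and 45 did not. Depth is unknown and 3 libraries a group limit the precision. The causes of the moved values were not tested. Requiring over 1.8-fold left counts of 1 for si-Rsl24d1 with rescue at day 0, rescued si-Rsl24d1 against unrescued si-CTL cells, rescue of si-Rsl24d1 cells at day 0, and day 4 against day 0 in both unrescued arms. It left 0 for si-Rsl24d1 at day 4, rescue of either cells at day 4, day 4 against day 0 in rescued si-CTL cells and both interactions with rescue, and it ended the call of Ppm1d at day 0 (0.67). A fit of only the groups compared gave 3 for rescued si-Rsl24d1 against unrescued si-CTL cells, 1 for si-Rsl24d1 at day 4, 0 for rescue of si-Rsl24d1 cells at day 4, 3 for day 4 against day 0 in si-CTL cells and 0 for the interaction with rescue at day 4. Median of ratios scaling gave 3 for si-Rsl24d1 at day 4 and 0 for that interaction. For rescue of si-CTL cells at day 4 the count was 1 without a filter and 1 without the mean-variance trend, and for the interaction with rescue at day 4 it was 0 and 1. Leaving out single libraries gave counts of 2 to 5 for si-Rsl24d1 at day 4, 0 to 1 for rescue of si-Rsl24d1 cells at day 4, 0 to 2 for rescue of si-CTL cells at day 4, 3 to 5 for day 4 against day 0 in si-CTL cells and 0 to 5 for the interaction with rescue at day 4.

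The changes of sign were all in values that did not pass the test. Under median of ratios scaling the log2 change of Mdm4 was -0.00629 with si-Rsl24d1 at day 0, 0.0401 with si-Rsl24d1 and rescue at day 4 and 0.0691 with rescue of si-Rsl24d1 cells at day 4. Trp53 was 0.0444 in rescued si-Rsl24d1 against unrescued si-CTL cells, 0.00829 with rescue of si-Rsl24d1 cells at day 0, -0.0496 with si-Rsl24d1 at day 4, -0.0857 for the interaction with day and 0.112 for that with rescue at day 4. Cdkn1a was 0.0857 with rescue of si-CTL cells at day 0 and -0.101 at day 4, Ppm1d 0.0275 and Ccng1 0.0539 with rescue of si-Rsl24d1 cells at day 4, and Mdm2 -0.0385 for day 4 against day 0 in rescued si-CTL cells. Without single libraries Mdm4 ranged from -0.108 to 0.121 with si-Rsl24d1 at day 0, from -0.0444 to 0.0401 with si-Rsl24d1 and rescue at day 4, from -0.112 to 0.047 with rescue of si-Rsl24d1 cells at day 4, from -0.0306 to 0.198 for day 4 against day 0 in si-CTL cells and from -0.216 to 0.0125 for the interaction with rescue at day 0. Trp53 ranged from -0.0234 to 0.0731 with si-Rsl24d1 and rescue at day 4. With rescue of si-Rsl24d1 cells at day 4 Ppm1d ranged from -0.122 to 0.0304 and Ccng1 from -0.11 to 0.0334, and with rescue of si-CTL cells at day 4 Cdkn1a ranged from -0.011 to 0.0715.

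The replicate numbers were checked for pairing. Deviations of same-numbered libraries from their group means correlated at -0.223 to 0.169 (mean -0.0173), over 0.1 in 4 of 84 pairs. No pairing by number was seen over all tested genes, and a batch shared by only some groups was not tested. A fit with the replicate number as a block gave 1 in place of 2 for rescue of si-CTL cells at day 4 and 0 in place of 3 for the interaction with rescue at day 4, and left every other count within 1.5 times.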
